A study of Mus musculus with 20 samples.

Results

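Branched-chain amino acid breakdown was followed through 10 genes in mouse hearts: the transaminase Bcat2, the dehydrogenase subunits Bckdha, Bckdhb and Dbt, the regulators Bckdk and Ppm1k, the leucine enzymes Ivd, Mccc1 and Mccc2, and the valine enzyme Hibadh. The genes were chosen by name for their place in the pathway, with earlier results of these data known. They are 10 of 49005 genes counted in the files, and all 10 are among the 18069 genes that were expressed highly enough to be tested. RNA-seq of polyadenylated RNA was made from whole hearts of wild-type C57BL/6 mice of 12 weeks. Chow females and chow males formed 2 groups, and females and males labelled PA, read as the high-fat diet since chow and high fat are the only diets the series mentions, formed the other two. Each group has 5 samples in the labels. Chow male 4 was counted per gene rather than per piece of exon and is left out, so 19 libraries are compared. The labels give neither the length or composition of the diet nor a separate animal for each library, and the p-values below measure the spread between these samples.

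Leucine, isoleucine and valine are first transaminated in the mitochondrion by BCAT2, which moves their amino group to 2-oxoglutarate. The resulting keto acids are decarboxylated by the branched-chain keto acid dehydrogenase complex, the committed step, built from E1 (BCKDHA and BCKDHB), E2 (DBT) and a shared E3 subunit (DLD). The kinase BCKDK phosphorylates E1 and switches the complex off, and the phosphatase PPM1K removes the phosphate. Separate chains of enzymes then carry the products to acetyl-CoA, acetoacetate and succinyl-CoA, and the heart is a tissue in which this pathway has been studied in obesity and in failure.

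The 19 libraries held 57805110 to 85794067 counts each. Levels are given as CPM, the count scaled to a common library size after TMM normalisation. High-fat females 4 and 5 stood apart from the other 17 libraries: the slope of log2 level on gene GC content (per 10 points of percent GC) was 0.54 and 0.82 in them and -0.16 to 0.08 in the rest, and Malat1, a nuclear long non-coding RNA, stood at 117 and 63.9 CPM, against 1132 to 1533. Results are therefore given with all 19 libraries and with these 2 libraries left out, a choice also made with earlier results of these data known. The 8 cardiomyocyte markers summed to 83586 to 103257 CPM, while the 5 white adipocyte markers summed to 0.163 to 1.68 CPM, with Lep, Cidec and Retn at 0 in some library, and of the 3 brown adipocyte markers Ucp1 and Elovl3 never exceeded 3 counts, while Cidea was at 17.5 to 34.4 CPM. A gene was called at a Benjamini-Hochberg adjusted p under 0.05, taken over all genes tested with the quasi-likelihood test of edgeR; adjusted p-values below are from that test unless another is named.

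With all 19 libraries, 3 of the 10 genes were called lower on high fat when the diet difference was averaged over the sexes, against 1.2% of all genes tested: Bckdhb, the E1 beta subunit, was lower by 19.1%, Ivd, the isovaleryl-CoA dehydrogenase of leucine breakdown, by 12.3%, and Mccc1, a subunit of the next leucine enzyme, by 8.86%. The edgeR adjusted p-values were 0.00574, 0.0242 and 0.0262. Bcat2 lay just outside the threshold, at -0.24 ± 0.06 log2 units (edgeR adjusted p = 0.0510). The calls of Ivd and Mccc1 were lost when chow male 1, 3 or 5 was left out, with edgeR adjusted p of 0.0567 to 0.0675 for Ivd and 0.0669 to 0.0731 for Mccc1, and that of Mccc1 also without high-fat male 2 (0.0524). With chow male 4 added as counted per gene neither was called (edgeR adjusted p = 0.0884 and 0.688), and Mccc1 was not called without a filter on low counts (0.0915) or from its largest piece alone (0.353). Chow male 4 is in another unit than the summed pieces, so a change with it cannot be told apart from the way of counting. Without high-fat female 5 there were 5 calls, Bcat2 (edgeR adjusted p = 0.0124) and Mccc2 (0.0432) being added, and Bcat2 was also called without chow female 4 (0.0358), high-fat female 4 (0.0437) or high-fat male 1 (0.0464). Over the 10 genes the median difference was -0.16 log2 units, against -0.02 over all genes tested.

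Within each sex alone, none of the 10 was called with all 19 libraries. Over all genes tested edgeR called 0.863% lower in females and 0.365% in males. In females 6 of the 10 had an unadjusted p under 0.05 in edgeR, as had 3390 of all 18069 genes in either direction, and DESeq2 called 2 lower, Bckdhb and Mccc1, with 367 of 14940 genes called lower. In males 5 had an unadjusted p under 0.05 in edgeR, as had 1539 of all genes, and DESeq2 called Bckdhb alone, with 121 of 19289 genes called lower. Differences were below 0 for 9 of the 10 in females, Bckdk being the exception, and for all 10 in males. Leaving out high-fat females 4 and 5 changed the female count: 8 of the 10 were then called lower, all but Bckdha and Bckdk, against 2.5% of all genes, and in males Bcat2 and Bckdhb were called lower, against 1.23%. In that fit the median over the 10 was -0.25 log2 units in females and -0.14 in males, against 0.00 and 0.01 over all genes tested. The average over the sexes also had 8 of the 10 called lower, against 4.6%. The same 8 had every one of high-fat females 1 to 3 below every chow female, as had 6.46% of all genes tested. With all libraries and the GC slope of each library as a covariate, 7 were called lower in females, 2 in males and 8 on average, against 2.73%, 1.3% and 4.83% of all genes. The slope comes from the same counts and chiefly sets high-fat females 4 and 5 apart. This fit is therefore not separate evidence from the one without them.

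**Figure D1:**
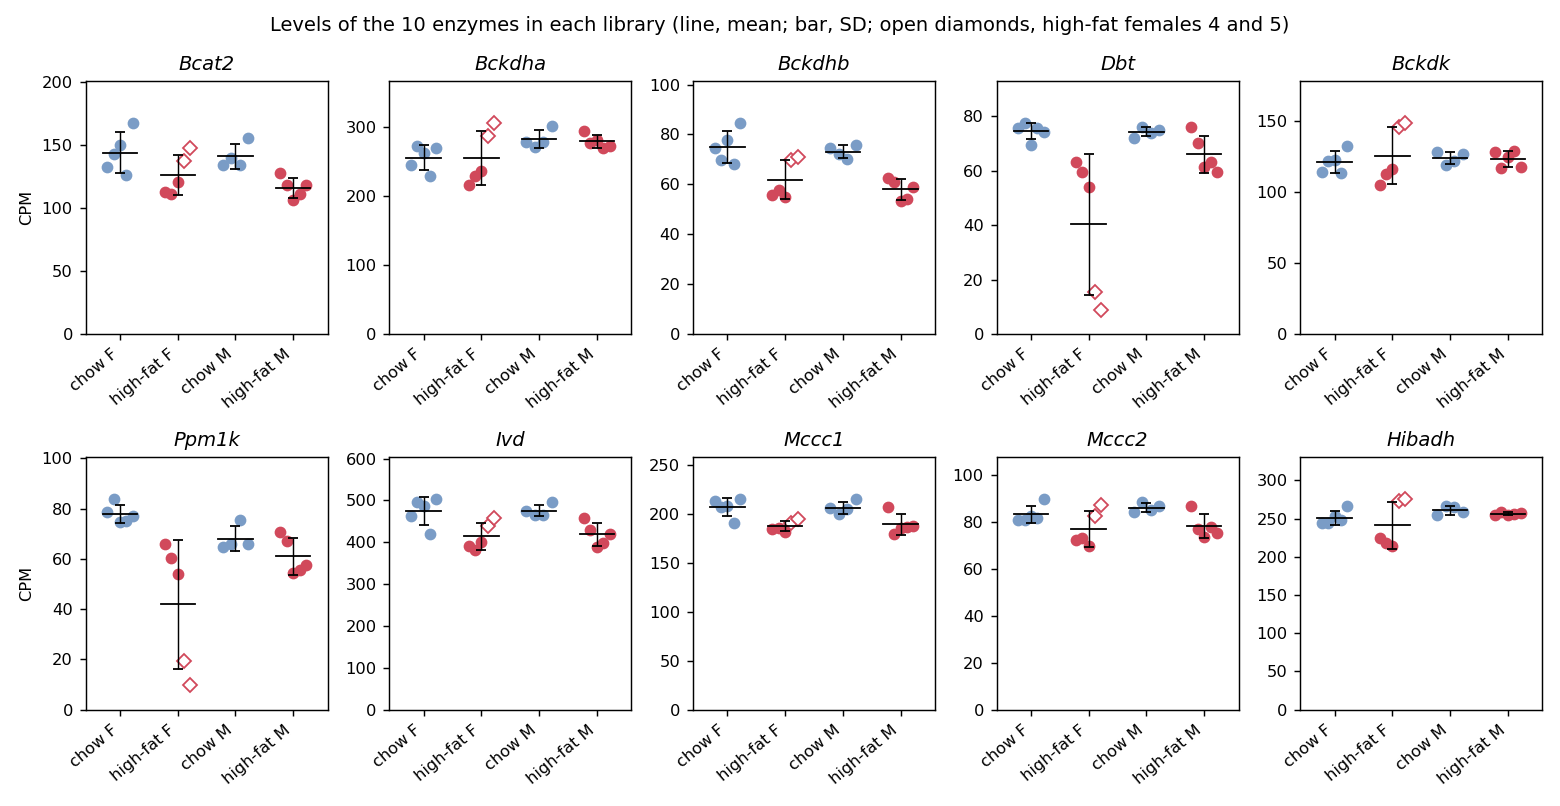
Levels of the 10 genes in CPM (vertical axis, from 0) in each of the 19 libraries, by group; lines are group means, bars the SD, and open diamonds high-fat females 4 and 5. Dbt and Ppm1k drop to between 8.72 and 19.2 CPM in those 2 libraries, where the other 8 genes lie above high-fat females 1 to 3.

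**Figure D2:**
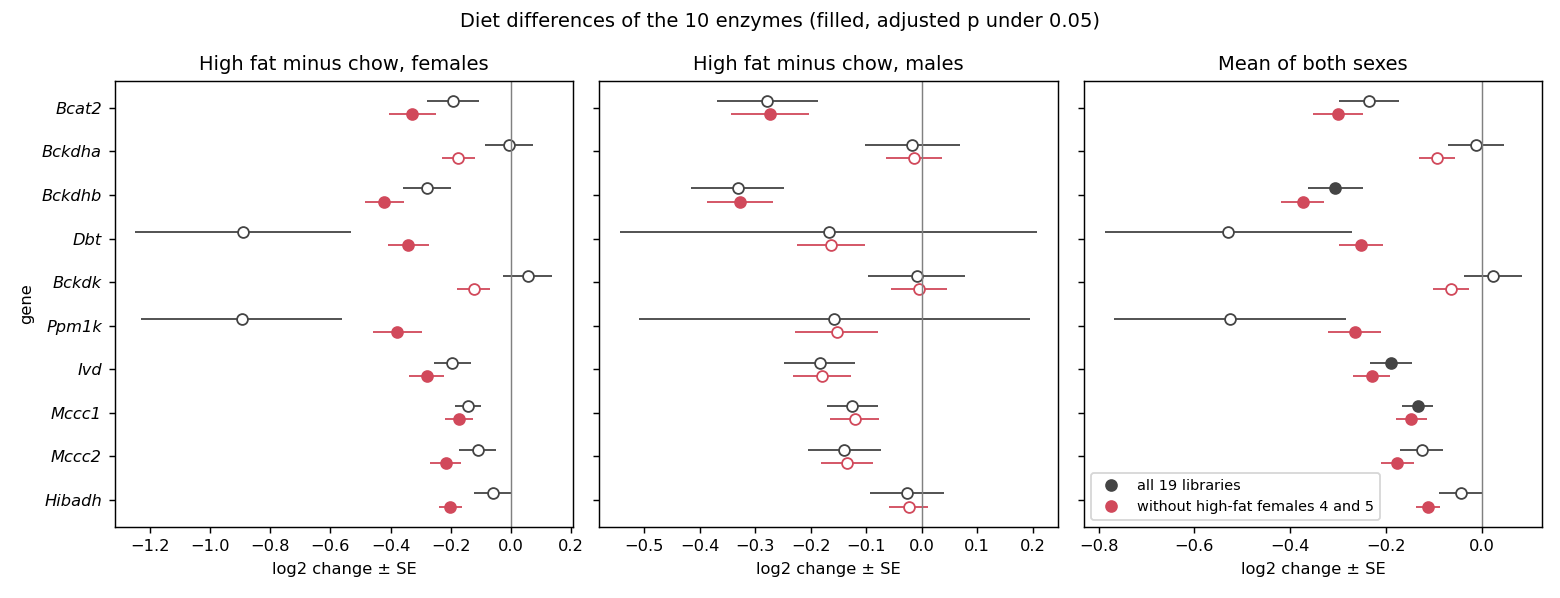
Log2 difference, high fat minus chow, with its SE for each gene in females, in males and averaged over the sexes; filled points have an edgeR adjusted p under 0.05. Grey points use all 19 libraries and red points leave out high-fat females 4 and 5, which takes the number called lower from 0 to 8 in females, from 0 to 2 in males and from 3 to 8 on average.

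The start regions of 4 of the genes are shown because 3 of them (Bckdhb, Bcat2 and Mccc1) were among the lower genes and the fourth, Bckdk, was not called by diet. Each is the 250 bases before a start site in RefSeq, on GRCm38.p6, written 5′ to 3′ on the gene's own strand. Bckdhb and Bcat2 each have 2 such entries, of which 1 is shown. Capitals mark matches on either strand to the GC box GGGCGG, the CCAAT box, the E-box CACGTG, the CACCC box (CACCC, which KLF factors can bind), the estrogen-related receptor element AAGGTCA and the TATA box TATAAA.
Bckdhb (chr9:83924887-83925136, plus strand): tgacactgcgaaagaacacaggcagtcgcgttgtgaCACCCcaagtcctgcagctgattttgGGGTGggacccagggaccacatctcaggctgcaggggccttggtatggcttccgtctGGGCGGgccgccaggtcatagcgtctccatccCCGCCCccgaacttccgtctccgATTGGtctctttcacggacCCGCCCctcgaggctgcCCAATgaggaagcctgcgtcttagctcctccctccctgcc
Bcat2 (chr7:45569903-45570152, plus strand): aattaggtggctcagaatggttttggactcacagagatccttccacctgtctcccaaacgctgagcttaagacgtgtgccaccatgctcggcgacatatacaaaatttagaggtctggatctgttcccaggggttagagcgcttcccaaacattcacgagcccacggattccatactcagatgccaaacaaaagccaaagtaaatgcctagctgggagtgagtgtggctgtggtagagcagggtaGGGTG
Mccc1 (chr3:36000679-36000928, minus strand): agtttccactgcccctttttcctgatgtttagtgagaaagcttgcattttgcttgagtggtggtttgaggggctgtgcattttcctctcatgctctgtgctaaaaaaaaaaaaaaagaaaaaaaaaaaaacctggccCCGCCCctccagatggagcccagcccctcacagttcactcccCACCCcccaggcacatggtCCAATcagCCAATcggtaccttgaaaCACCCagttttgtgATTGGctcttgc
Bckdk (chr7:127903823-127904072, plus strand): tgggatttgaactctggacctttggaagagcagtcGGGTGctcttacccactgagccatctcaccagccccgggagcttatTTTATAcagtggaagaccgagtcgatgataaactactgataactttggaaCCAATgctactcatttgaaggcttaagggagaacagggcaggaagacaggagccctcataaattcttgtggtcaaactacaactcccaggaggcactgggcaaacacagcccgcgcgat
RefSeq start regions were at hand for 9 of the 10 genes, Dbt lacking one. Of these 9, 4 held the GC box, 7 the CCAAT box, 7 the CACCC box, 1 the E-box, 1 the TATA box and 0 the receptor element. Among 32851 start regions of the same length the shares were 32.7%, 33.8%, 52.0%, 6.02%, 12.4% and 4.08% in that order. The Bckdhb region has a GC content of 63.2% with 3 GC boxes, 2 CCAAT boxes and 2 CACCC boxes. The Bcat2 region has 50.4% GC and a single CACCC box at its 3′ end. The Mccc1 region has 48.4% GC with 1 GC box, 3 CCAAT boxes and 2 CACCC boxes, and the Bckdk region has 1 CCAAT box, 1 CACCC box and 1 TATA box. A match is only a description of letters, and no binding was measured.

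Bcat2 (ENSMUSG00000030826, chr7:45570153-45589711, plus strand, GRCm38), the mitochondrial transaminase of the first step, was at 133, 143, 150.4, 126 and 167 CPM in chow females 1 to 5 and at 113, 111, 121, 137 and 148 CPM in high-fat females 1 to 5. The males held 134, 140.0, 134 and 156 CPM on chow (replicates 1, 2, 3 and 5) and 128, 118, 107, 111 and 118 CPM on high fat. Every high-fat male lay below every chow male, while in females the groups overlapped through high-fat females 4 and 5 only. The difference was -0.19 ± 0.09 log2 units in females and -0.28 ± 0.09 in males (edgeR adjusted p = 0.239 and 0.259). Without high-fat females 4 and 5 it was -0.33 ± 0.08 and -0.27 ± 0.07 (edgeR adjusted p = 0.0193 and 0.0414). Its exons share 622 of 3900 bases with a gene on the opposite strand, 0610005C13Rik, and counting by strand is not given in the sources used here.

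Bckdhb (ENSMUSG00000032263, chr9:83925145-84124240, plus strand), the beta subunit of the E1 decarboxylase, had the largest called difference of the 10 with all libraries. Chow females held 74.8, 69.9, 77.6, 68.3 and 84.5 CPM and high-fat females 55.7, 57.7, 55.0, 69.7 and 70.9 CPM. Chow males held 74.6, 72.0, 70.0 and 75.8 CPM and high-fat males 62.7, 61.1, 53.2, 54.3 and 59.1 CPM. High-fat females 1 to 3 and all 5 high-fat males lay below every chow library of their sex, and high-fat females 4 and 5 lay inside the chow range. Of all genes tested, 3.98% had every high-fat male below every chow male, as did 3 of the 10 here (Bcat2, Bckdhb and Ivd). The average difference was -0.31 ± 0.06 log2 units, with -0.28 ± 0.08 in females and -0.33 ± 0.08 in males (edgeR adjusted p = 0.00574, 0.0671 and 0.0862). In single sexes the call depended on the 2 libraries: without high-fat female 4 or 5 the female edgeR adjusted p was 0.0499 or 0.0298, without female 5 the male one was 0.0389, and without both they were 0.00134 and 0.00363. The average difference kept its call with each library left out in turn (edgeR adjusted p = 0.00144 to 0.0206).

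The lower Bckdhb level was seen in every exon piece examined. The authors' files count pieces of exons, and 11 pieces of Bckdhb had at least 20 bases and 1 CPM. All 11 were lower in high-fat females 1 to 3 than in every chow female, and all 11 were lower in every high-fat male than in every chow male. A piece near the 5′ end (chr9:83925150-83925359) had a mean of 6.27 CPM in chow females and 4.39 CPM in high-fat females 1 to 3, and one near the 3′ end (chr9:84123969-84124198) had 5.45 and 4.06 CPM. Over the 10 genes, 144 of 204 pieces were that large; all 144 had a lower mean in high-fat females 1 to 3 than in chow females, and 130 had a lower mean in high-fat than in chow males. Reads crossing piece borders enter more than 1 piece, so pieces of a gene are not independent. The pieces also add up to the gene levels above, so they are not separate evidence. No share over the pieces of all genes was taken.

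Bckdha (ENSMUSG00000060376, chr7:25629946-25658981, minus strand), the alpha subunit that BCKDK phosphorylates, was not called in either sex. It was at 245, 273, 263, 229 and 269.9 CPM in chow females and 216, 229, 236, 287 and 306 CPM in high-fat females. The males held 278, 271, 278 and 302 CPM on chow and 294, 276, 282, 270.1 and 273 CPM on high fat. High-fat females 4 and 5 were above all chow females, and the male groups overlapped. The difference was -0.01 ± 0.08 log2 units in females and -0.02 ± 0.09 in males (edgeR adjusted p = 0.972 and 0.999), and -0.18 ± 0.06 in females without the 2 libraries (edgeR adjusted p = 0.0723). With all libraries these differences lay near 0 and their sign turned under several other settings. Of its 1899 exon bases, 1171 are shared with B3gnt8 on the opposite strand, so the reads of the pair may not be separated. The log2 ratio of Bckdha to Bckdhb, which cancels library size but not transcript length, was 1.95 ± 0.05 (SD, n = 4) in chow males and 2.27 ± 0.09 (n = 5) in high-fat males, and these groups did not overlap. In females it was 1.77 ± 0.11 (n = 5) and 2.04 ± 0.07 (n = 5), with 1.68 to 1.96 on chow and 1.96 to 2.11 on high fat, where the ranges just met. These ratios were chosen after the levels were seen and carry no test.

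Dbt (ENSMUSG00000000340, chr3:116513070-116549981, plus strand), the E2 core, was at 75.6, 77.4, 69.5, 75.8 and 74.3 CPM in chow females and at 63.3, 59.5, 54.0, 15.5 and 8.72 CPM in high-fat females. Chow males stood at 72.1, 76.1, 74.0 and 74.8 CPM and those on high fat at 76.0, 70.0, 61.5, 63.3 and 59.6 CPM. All 5 high-fat females were below all chow females, and high-fat male 1 lay inside the chow range while the other 4 lay below it. Dbt and Ppm1k were the only members without overlap between the female groups when all libraries were used, where 1.9% of all genes tested were lower in that way. The female difference was -0.89 ± 0.36 log2 units (edgeR adjusted p = 0.191), and without high-fat females 4 and 5 it was -0.34 ± 0.07 (edgeR adjusted p = 0.00656). The male difference was -0.17 ± 0.38 with all libraries and -0.16 ± 0.06 without those 2 (edgeR adjusted p = 0.999 and 0.191). The male libraries were the same in both fits, and the spread is shared by the 4 groups. Their SD was 1.67 CPM on chow (n = 4) and 6.80 CPM on high fat (n = 5).

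The kinase Bckdk (ENSMUSG00000030802, chr7:127904082-127910221, plus strand) was not called in either sex. Its levels were 114, 122, 122.6, 113 and 132 CPM in chow females and 105, 112, 116, 146 and 148 CPM in high-fat females, the 2 highest being females 4 and 5. In males they were 128, 119, 122 and 127 CPM on chow and 128, 117, 124, 129 and 118 CPM on high fat, with overlapping groups. The difference was 0.06 ± 0.08 log2 units in females and -0.01 ± 0.09 in males (edgeR adjusted p = 0.731 and 0.999), and -0.12 ± 0.05 in females without the 2 libraries (edgeR adjusted p = 0.200).

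The phosphatase Ppm1k (ENSMUSG00000037826, chr6:57506502-57535468, minus strand) was at 78.8, 83.9, 74.8, 75.1 and 77.0 CPM in chow females and at 66.0, 60.3, 54.1, 19.2 and 9.86 CPM in high-fat females, which did not overlap. In males it was at 64.7, 66.0, 75.7 and 65.9 CPM on chow and 70.7, 67.1, 54.4, 55.5 and 57.4 CPM on high fat, which did. The female difference was -0.90 ± 0.34 log2 units with all libraries and -0.38 ± 0.08 without high-fat females 4 and 5 (edgeR adjusted p = 0.159 and 0.0132). The male difference was -0.16 ± 0.35 and -0.15 ± 0.07 (edgeR adjusted p = 0.999 and 0.344), from the same male libraries in both fits. The log2 ratio of kinase to phosphatase was 0.63 ± 0.11 (SD, n = 5) in chow females and 0.89 ± 0.22 (n = 3) in high-fat females 1 to 3, with overlapping ranges of 0.53 to 0.78 and 0.66 to 1.10. In males it was 0.86 ± 0.13 (n = 4) and 1.02 ± 0.19 (n = 5), again overlapping. The log2 ratio of the kinase to the E1 beta subunit separated the diets in both sexes. It ran from 0.61 to 0.80 in chow females and from 0.91 to 1.08 in all 5 high-fat females, including 4 and 5, and from 0.72 to 0.80 in chow males and 0.93 to 1.25 in high-fat males. The means were 0.69 ± 0.08 and 1.01 ± 0.08 in females and 0.76 ± 0.03 and 1.08 ± 0.14 in males. The ratios, too, were chosen after the levels were seen and carry no test.

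On the leucine branch, Ivd (ENSMUSG00000027332, chr2:118861954-118882909, plus strand), which oxidises isovaleryl-CoA, was at 462, 496, 486, 420.4 and 504 CPM in chow females and 390.4, 382, 400.3, 439.5 and 457 CPM in high-fat females. Male levels were 476, 465, 466 and 495 CPM on chow and 457, 429, 389, 399 and 419 CPM on high fat. All high-fat males lay below all chow males, and high-fat females 1 to 3 lay below all chow females. The difference was -0.19 ± 0.06 log2 units in females and -0.18 ± 0.06 in males (edgeR adjusted p = 0.0926 and 0.317), and the average was -0.19 ± 0.04. Without high-fat female 5 the female difference was called (edgeR adjusted p = 0.0466), and without both 4 and 5 it was -0.28 ± 0.06 (edgeR adjusted p = 0.00814).

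Mccc1 (ENSMUSG00000027709, chr3:35959312-36000678, minus strand) and Mccc2 (ENSMUSG00000021646, chr13:99948533-100015639, minus strand) encode the biotin-bearing alpha and the beta subunit of methylcrotonyl-CoA carboxylase, the step after IVD. Mccc1 was at 213, 207, 208, 190.9 and 215 CPM in chow females and 184, 185, 182, 190.7 and 194 CPM in high-fat females, where high-fat female 5 alone reached into the chow range. It was at 206, 199.6, 204 and 214 CPM in chow males and 206, 179, 186, 187 and 187 CPM in high-fat males, where high-fat male 1 alone did so. The Mccc1 differences were -0.14 ± 0.04 log2 units in females and -0.12 ± 0.05 in males (edgeR adjusted p = 0.0882 and 0.371), with an average of -0.13 ± 0.03. Mccc2 was at 80.7, 81.0, 82.6, 81.9 and 89.8 CPM in chow females and 72.2, 73.3, 69.6, 82.7 and 87.4 CPM in high-fat females. In males it was at 84.2, 88.3, 85.1 and 86.6 CPM on chow and 86.9, 77.0, 73.7, 77.7 and 75.5 CPM on high fat. High-fat females 4 and 5 and high-fat male 1 lay inside the chow ranges of their sex, and the other 7 high-fat libraries lay below them. Mccc2 differed by -0.12 ± 0.04 log2 units on average (edgeR adjusted p = 0.165). In females without 4 and 5 the differences were -0.17 ± 0.05 for Mccc1 and -0.22 ± 0.05 for Mccc2 (edgeR adjusted p = 0.0408 and 0.0192). The log2 ratio of the 2 subunits stayed between 1.15 and 1.40 in all 19 libraries.

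Hibadh (ENSMUSG00000029776, chr6:52546228-52640389, minus strand), the 3-hydroxyisobutyrate dehydrogenase of valine breakdown, was at 245, 244, 254, 249 and 266 CPM in chow females and 225, 219, 214, 273 and 276 CPM in high-fat females. High-fat females 1 to 3 were below, and 4 and 5 above, every chow female. The male levels were 254, 266, 266 and 258 CPM on chow and 255, 259, 255, 256 and 257 CPM on high fat, the high-fat values lying within the chow range. The difference was -0.06 ± 0.06 log2 units in females and -0.03 ± 0.07 in males (edgeR adjusted p = 0.611 and 0.999). Without high-fat females 4 and 5 Hibadh fell by 0.20 ± 0.04 log2 units in females (edgeR adjusted p = 0.00485) and differed by -0.02 ± 0.03 in males (edgeR adjusted p = 0.822).

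Over the list, high-fat male 1 held the highest level of its group for 8 of the 10 genes and high-fat male 3 the lowest for 6. High-fat female 5 was also highest in its group for 8, while chow female 5 was highest for 7 and chow female 4 lowest for 6. Against the mean of the chow libraries of the same sex, the median over the 10 genes was -0.24 to -0.25 log2 units in high-fat females 1 to 3, -0.08 and 0.00 in females 4 and 5, 0.01 in high-fat male 1 and -0.12 to -0.25 in the other high-fat males. All genes tested had a median between -0.03 and 0.02 in every library on the same measure.

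Dbt and Ppm1k parted from the other 8 genes in high-fat females 4 and 5. The log2 ratio of the mean of those 2 libraries to that of high-fat females 1 to 3 was -2.28 for Dbt and -2.05 for Ppm1k, while the other 8 genes had ratios of 0.07 to 0.40. Among these 10 genes and 23 further genes of the pathway, 7 lay in both libraries below all 17 others: Dbt, Ppm1k, and the pathway genes Acadsb, Dld, Mmut, Hibch and Aldh6a1. The expressed exons of these 7 had a GC content of 39.9% to 42.7%, and those of the other 26 had 46.3% to 57.9%. Expressed exons here are pieces with a count density of at least 10% of the gene's median coding density. On the GC content of the longest transcript, which the library slopes use, the split was not clean. There Hibadh (39.5%) and Mmaa (41.9%) were as low, with log2 ratios of 0.32 and 0.12, and Hibch, which dropped, was at 45.9%. All 14 pieces of Dbt were lower in females 4 and 5 than in 1 to 3, by log2 ratios of -2.65 to -2.06, although their own GC content ran from 36.2% to 66.7%, and so were all 7 pieces of Ppm1k (-2.15 to -1.91). The part of GC content in the levels of these 2 libraries was not tested.

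**Figure D3:**
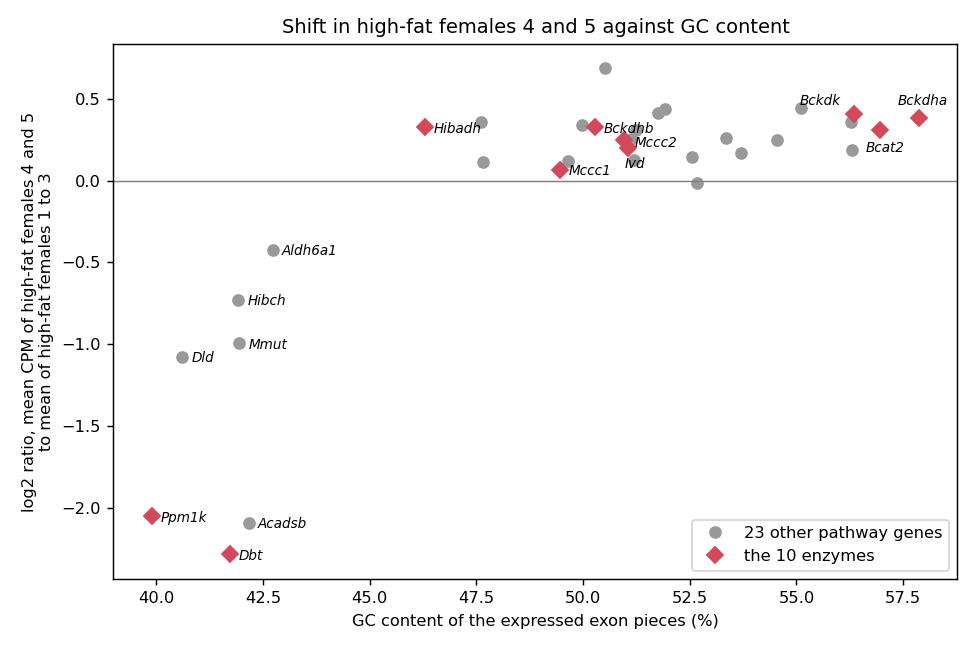
GC content of the expressed exon pieces (horizontal axis, percent) against the log2 ratio of the mean CPM in high-fat females 4 and 5 to that in high-fat females 1 to 3 (vertical axis), for the 10 genes (red diamonds) and 23 further pathway genes (grey). The 7 genes under 43% GC lie between -2.28 and -0.42, and the other 26 lie between -0.01 and 0.68.

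The test of the female against the male diet difference called 0 of the 10 genes in edgeR, where 0 had an unadjusted p under 0.05, and DESeq2 called 0. Over all genes tested edgeR called 0%, and DESeq2 called 37 higher and 22 lower. Without high-fat females 4 and 5 the female difference was the lower for all 10, edgeR again called 0, and 2 had an unadjusted p under 0.05, the smaller p being that of Hibadh, at -0.18 ± 0.05 log2 units (edgeR adjusted p = 0.215). Between the sexes on chow, edgeR called 0 of the 10 (0 with an unadjusted p under 0.05 in edgeR, 0 called by DESeq2), with 3.22% of all genes called. Ppm1k was at 77.9 ± 3.70 CPM (SD, n = 5) in chow females and 68.1 ± 5.09 CPM (n = 4) in chow males, and the difference of 0.20 ± 0.35 log2 units was called only in a fit of the 2 chow groups alone (edgeR adjusted p = 0.0450) and with the GC slope of each library as a covariate (0.0402), which also called Bckdha lower in chow females (0.0236), with 4.93% of all genes called lower in that fit. Without high-fat females 4 and 5 the Ppm1k difference on chow was 0.20 ± 0.08 log2 units (edgeR adjusted p = 0.0946). On high fat, none was called with all libraries (0 with an unadjusted p under 0.05 in edgeR, 0 called by DESeq2), with 10.3% of all genes called.

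Without high-fat females 4 and 5, 2 genes were lower in high-fat females than in high-fat males, against 5.47% of all genes called lower. Bckdha differed by -0.30 ± 0.06 log2 units (edgeR adjusted p = 0.00214) and Hibadh by -0.23 ± 0.04 (edgeR adjusted p = 0.000906). In that comparison 4 genes, Bckdha, Bckdk, Mccc2 and Hibadh, had no overlap between the groups, with every female lower, as had 8.85% of all genes tested. High-fat females 1 to 3 had 227 ± 9.74 CPM of Bckdha (SD, n = 3) and 219 ± 5.30 CPM of Hibadh, and high-fat males had 279 ± 9.47 and 256 ± 1.72 CPM (n = 5). With the GC slope as a covariate and all 19 libraries, Bckdk was called lower in high-fat females as well, at -0.21 log2 units (edgeR adjusted p = 0.0245; 3.1% of all genes called lower), where without that covariate it was 0.03 ± 0.08.

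Per length of coding exon, the order of the genes in chow females was Ivd at 224 ± 18.7 CPM per kb (SD, n = 5), Hibadh at 200.2 ± 7.14, Bckdha at 182 ± 13.0, Bcat2 at 78.3 ± 6.01, Mccc1 at 69.8 ± 3.79, Bckdk at 62.5 ± 3.44, Bckdhb at 52.3 ± 5.49, Mccc2 at 46.1 ± 3.16, Ppm1k at 31.1 ± 3.12 and Dbt at 30.7 ± 1.18. The ranges of libraries overlapped between all neighbours in that order except Bckdha and Bcat2, Bcat2 and Mccc1, and Mccc2 and Ppm1k. The alpha subunit of E1 stood above the beta subunit and the E2 core on this scale, in a gene that shares exon bases with B3gnt8. In chow males the values ran from 28.5 ± 2.24 for Ppm1k to 229.7 ± 3.62 for Ivd. These values rest on 3 to 9 coding pieces of at least 100 bases per gene. Reads crossing piece borders enter more than 1 piece and were not corrected for, so the order between genes is approximate.

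Whole hearts hold several cell types, and in such samples fewer cells of a type and less RNA per cell cannot be told apart. The summed level of the 8 cardiomyocyte markers ran from 94277 to 101596 CPM in chow females and from 83586 to 91046 CPM in high-fat females 1 to 3, with 96951 and 98246 CPM in females 4 and 5. In males it ran from 95678 to 103257 CPM on chow and from 86140.3 to 91912 CPM on high fat. The diets did not overlap in males, nor in females without 4 and 5. The difference in mean log2 sum was -0.21 in those females and -0.14 in males. With all libraries Tnnt2 was the only one of the 8 called by diet, lower in females and on average. The endothelial sum moved the other way without overlap, from 678 to 781 CPM in chow females against 816 to 887 in all 5 high-fat females, and from 725 to 798.8 against 799.98 to 874 CPM in males. With all libraries 3 of the 5 endothelial markers were called higher in females and 4 on average. The share of all genes that edgeR called higher by diet with all libraries is not given here, for these or the markers that follow. The 5 fibroblast markers summed to 558 to 625 CPM in chow females and 623 to 695 in high-fat females, and to 549 to 582 and 565 to 623 CPM in males. Of these 5, Col1a1 was called by diet, higher by 0.50 ± 0.07 log2 units in females and 0.27 ± 0.05 on average (edgeR adjusted p = 0.00108 and 0.00463). Cidea, the brown adipocyte marker that was present, was higher by 0.39 ± 0.08 on average (edgeR adjusted p = 0.0116), at 19.3 to 21.1 CPM in chow males and 23.2 to 27.8 in high-fat males, which did not overlap, and at 17.5 to 22.8 and 21.0 to 34.4 CPM in females, which did. Smooth muscle markers summed to 129 to 179.7 CPM in chow females and 173 to 240.1 in high-fat females, and to 126 to 132 and 141 to 202 CPM in males, without overlap in males only. Of these 4 markers, Acta2 alone was called by diet, higher by 0.52 ± 0.12 log2 units on average (edgeR adjusted p = 0.0197) and not called in either sex. Red cell markers summed to 225 to 283 and 210.4 to 400.4 CPM in females and to 259 to 318 and 273 to 399 CPM in males. The part of cell makeup in the differences of the 10 genes was not tested.

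When each gene was set against the cardiomyocyte sum in the same library, the differences were as follows, described without a test on a scale chosen after the data were seen. Bckdhb had log2 differences, high fat minus chow, of -0.21 in females 1 to 3 and -0.19 in males, and Bcat2 had -0.11 and -0.14; in males neither overlapped between the diets, in females both did. Mccc1 (0.04 and 0.02) and Mccc2 (-0.01 and 0.00) lay near 0 on this scale. Bckdha, Bckdk and Hibadh were higher in males on high fat, by 0.13, 0.13 and 0.12, without overlap, and by 0.04, 0.09 and 0.01 in females, with overlap. The marker sum they are set against differed by -0.14 in males, without overlap. Their own differences in edgeR in males, not set against it, were -0.02, -0.01 and -0.03 log2 units. The share of all genes without overlap on this scale was not counted. Dbt, Ppm1k and Ivd had values of -0.13, -0.17 and -0.07 in females and -0.03, -0.02 and -0.04 in males, all with overlap.

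**Figure D4:**
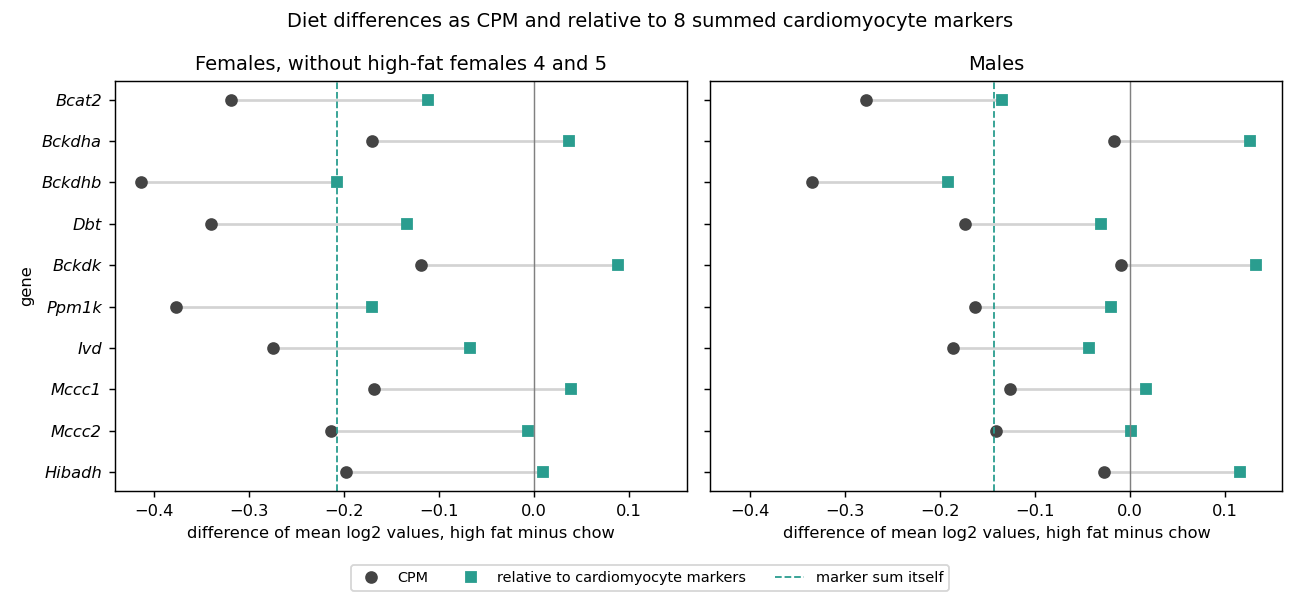
Difference in mean log2 level, high fat minus chow, for each gene as CPM (dark circles) and relative to the sum of 8 cardiomyocyte markers (green squares), in females without high-fat females 4 and 5 and in males. The dashed line is the difference of the marker sum itself, -0.21 in females and -0.14 in males; Bckdhb is the gene farthest below 0 on both scales in both panels.

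The other 23 genes of branched-chain amino acid use cover transport, the shared E3 subunit, the remaining steps of the 3 branches, propionyl-CoA disposal and the regulator Klf15, and all 23 passed the expression filter. With all libraries, Aldh6a1, the methylmalonate semialdehyde dehydrogenase of valine breakdown, was the only one of them called by diet: it fell by 0.40 ± 0.09 log2 units in females (edgeR adjusted p = 0.0237) and by 0.26 ± 0.07 on average (edgeR adjusted p = 0.0357). It is among the 7 genes that were low in high-fat females 4 and 5. The female call was lost without chow female 1 or high-fat female 4, and the average call when any one of chow females 1, 2, 3 and 5, the chow males or high-fat males 2 to 5 was left out, which left 0 of the 23 called. In males edgeR called 0 of the 23, with 2 at an unadjusted p under 0.05 and 0 called by DESeq2, the smallest p being that of Acat1. Without high-fat females 4 and 5, 10 of the 23 were called lower in females, against 2.5% of all genes. The 3 that fell most were Hsd17b10, a hydroxyacyl-CoA dehydrogenase, at -0.36 ± 0.06 log2 units, Acadsb, the short branched-chain acyl-CoA dehydrogenase, at -0.34 ± 0.06, and Echs1, the short-chain enoyl-CoA hydratase, at -0.28 ± 0.05 (edgeR adjusted p = 0.00134, 0.00203 and 0.00319). Aldh6a1, Mmab, Mmut, Dld, Pcca and Auh were also among the 10, between -0.25 and -0.15 log2 units.

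In males without those 2 libraries in the fit, Acat1, the mitochondrial acetoacetyl-CoA thiolase that also serves ketone body use, was the only one of the 23 called and it rose by 0.16 ± 0.04 log2 units (edgeR adjusted p = 0.0405), against 1.36% of all genes called higher. Its levels were 753, 736, 793 and 787 CPM in chow males and 899.7, 847, 839.9, 845 and 846 CPM in high-fat males, without overlap. In females it was at 723 ± 38.1 CPM on chow and 745 ± 37.8 on high fat (SD, n = 5 each). None of the 6 transport and transaminase genes was called by diet in either sex in either fit, among them Slc25a44, the mitochondrial carrier of branched-chain amino acids, and Bcat1, the cytosolic transaminase, at 0.688 ± 0.175 CPM in chow females. Klf15, a transcription factor known to regulate this pathway in heart, was at 29.8 ± 4.49 CPM in chow females, 28.3 ± 4.50 in females on high fat, 29.4 ± 5.35 in males on chow and 29.9 ± 4.02 in males on high fat, and was not called in any of the 6 comparisons with all libraries.

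Between the sexes on high fat, 4 of the 23 were called with all libraries, against 10.3% of all genes, Slc25a44 higher in females (0.30 ± 0.07 log2 units) and Acat1 (-0.20 ± 0.05), Hibch (-0.47 ± 0.14) and Aldh6a1 (-0.31 ± 0.09) lower, with edgeR adjusted p of 0.00842, 0.0109, 0.0404 and 0.0360. Without high-fat females 4 and 5 these 4 kept their calls and directions, and Dld, Acadsb, Pcca, Mmut and Mmaa were added on the lower side, where 5.47% of all genes were called. On chow edgeR called 0 of the 23, with 2 at an unadjusted p under 0.05, and DESeq2 called 0; the smallest p was that of Bcat1, at -0.79 ± 0.30 log2 units, females minus males (edgeR adjusted p = 0.181). In the test of the female against the male diet difference edgeR also called 0 of the 23, with 2 at an unadjusted p under 0.05 and 0 called by DESeq2, the smallest p being that of Slc25a44 (0.28 ± 0.10, edgeR adjusted p = 0.371). The comparisons on high fat and by diet share the high-fat libraries, so their calls are not separate evidence.

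**Figure D5:**
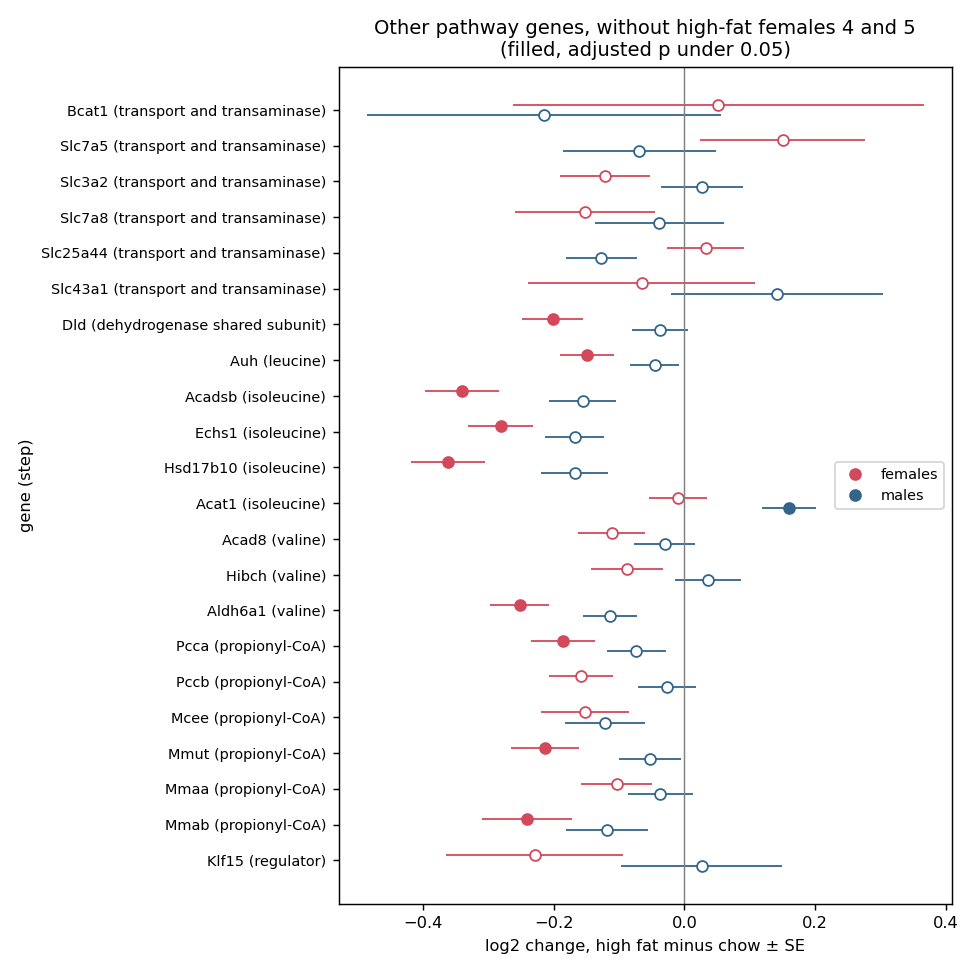
Log2 difference, high fat minus chow, with its SE for other pathway genes in females (red) and males (blue), fitted without high-fat females 4 and 5; filled points have an edgeR adjusted p under 0.05. In females all the called genes lie below 0, between -0.36 and -0.15, and in males Acat1 is called, at 0.16.

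Of 11985 genes outside the pathway with an established symbol and a mean of at least 1 CPM, those whose log2 levels most resembled the mean standardised level of the 10 were Hrc, a calcium-binding protein of the sarcoplasmic reticulum (Pearson r = 0.93 over the 17 libraries without high-fat females 4 and 5, 0.92 over all 19), Got1, the cytosolic aspartate aminotransferase (0.93 and 0.85), Gstk1, a glutathione transferase (0.92 and 0.88), Ldhb, the heart-type lactate dehydrogenase subunit (0.92 and 0.86), and Adk, adenosine kinase (0.91 and 0.87). Hrc was at 907 ± 32.5 CPM in chow females (SD, n = 5), 761 ± 30.6 in high-fat females 1 to 3 (n = 3), 931 ± 50.1 in males on chow (n = 4) and 829.7 ± 50.8 in those on high fat (n = 5). Against the same mean over the 17 libraries, of which each is a part, the members themselves ran from 0.64 for Bckdha and 0.65 for Bckdk to 0.95 for Mccc2 and Ivd. Over all 19 they ran from 0.11 for Dbt and 0.12 for Ppm1k to 0.95 for Ivd. The libraries share the diet groups and their sequencing, and a correlation across them is a description only.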

How the data were processed

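The authors deposited raw counts per library from RNA-seq of mouse hearts. Counts are given per piece of exon in 19 libraries and per gene in the remaining chow male library, which was not compared. The submitters' processing notes name Salmon 1.5.1, DESeq2 1.32.0 and GRCm39, with no role given, and the counting tool and use of strand are not given in the sources used here. Of 49056 gene IDs shared with the GENCODE vM21 annotation of GRCm38, 91.4% had the same position there, so coordinates are given on GRCm38. Of 425461 pieces, 33309 carry joined gene IDs: 27829 were given to a single gene, and 5480, with 1.35% to 1.49% of the counts, were not used. Reads crossing piece borders enter more than 1 piece.

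Piece counts were summed per gene and tested with edgeR 4.0.16 in R 4.3.3 (default expression filter, TMM scaling, quasi-likelihood test, 1 model over the 4 groups, 15 residual degrees of freedom, Benjamini-Hochberg adjustment over 18069 genes, or 18297 without high-fat females 4 and 5). The comparisons were diet in each sex, their average and difference, and sex on each diet. Alternatives were DESeq2 1.42.0, other size factors and filters, only the groups compared, a replicate block, a GC slope covariate, the largest piece of each gene, the per-gene library added, the fit without high-fat females 4 and 5, and fits without single libraries. The code was tested on simulated data. Library totals of 57805110 to 85794067 counts include reads entered in more than 1 piece, and the counting error of the 10 genes was not measured.

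All 10 genes are named in every comparison. Other pathway genes are named where called, or by the smallest p, and the 5 genes most like the 10 by Pearson r. The members, lists and the 2 libraries left out were chosen with earlier results of these data known. Replicate numbers did not pair the samples: over 27 pairs of libraries with the same number in different groups, the correlation of deviations from the group means ran from -0.22 to 0.26. Promoter sequences are from RefSeq on GRCm38.p6. The single values of 1 other pathway gene are not reported here; it is kept in the counts.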

Additional observations from a re-analysis of the deposited data

Results flagged for a closer look

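Within 40 groups of values, 1 for each of the 10 genes in each of the 4 groups, a library far from the others of its group was found 2 times. Chance gives a flag in about 1 in 20 such groups, and the number found is near that rate. Ppm1k was at 75.7 CPM in chow male 3, the highest of 4, with the other 3 chow males at 64.7 to 66.0 CPM. Mccc2 was at 89.8 CPM in chow female 5, the highest of 5, with the other 4 chow females at 80.7 to 82.6 CPM.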

How the results depend on the processing

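With high-fat females 4 and 5 left out, 8 of the 10 genes were called by diet in females, 2 in males, 8 on average and 2 by sex on high fat, and of the 23 other pathway genes 10, 1, 10 and 9. With the GC slope as a covariate, the 10 gave 7, 2, 8 and 3 and, by sex on chow, 2, and the 23 gave 8 in females, 2 in males and 10 on average. DESeq2 called 2 of the 10 in females and 1 in males, and a filter of 1 CPM in 5 libraries gave 1 in females. Fits of only the groups compared called 3 of the 10 in males and 1 by sex on chow, and of the 23 they called 0 in females, 2 in males and 1 by sex on high fat. Adding chow male 4 as counted per gene, another unit than the summed pieces, left 1 of the 10 on average, and 0 of the 23 in females and 0 by sex on high fat. The largest piece of each gene gave 0 of the 23 on average, and no filter on low counts gave 2 of the 23 by sex on high fat. Leaving out each library in turn gave 0 to 2 of the 10 in females, 0 to 1 in males and 1 to 5 on average, and 0 to 2 of the 23 in females, 0 to 2 on average and 2 to 6 by sex on high fat. Calls over all genes are given above only for the fits with all libraries, without high-fat females 4 and 5, with the GC slope, and with DESeq2. For the other settings, the replicate block included, no such share is given, and their counts are not read as a result about these genes. The cause of these shifts was not tested.

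In the diet comparisons within a sex and on average, the sign turned for Bckdha and Bckdk, whose differences lie near 0. Bckdha in females was 9.2e-04 log2 units with DESeq2, and in males 0.0117 with the GC covariate and 0.18 with chow male 4, which gave 0.0886 on average. Bckdk was -0.12 in females and -0.0641 on average without high-fat females 4 and 5, and -0.13 and -0.0565 with the GC covariate, which gave 0.0196 in males, against 0.10 with chow male 4. With each library left out, Bckdha ran from -0.0824 to 0.0456 in females, -0.0365 to 0.0175 in males and -0.0482 to 0.0152 on average, and Bckdk from -0.0141 to 0.11, -0.0264 to 0.0119 and -0.0101 to 0.0528. Other members turned in the remaining comparisons. With those 2 libraries left out, Bcat2 by sex on high fat went from 0.11 to -0.02 and Bckdhb from 0.09 to -0.05, and the diet-by-sex differences of Bcat2, Bckdhb and Mccc2 went from 0.09, 0.05 and 0.03 to -0.05, -0.09 and -0.08. Over the 10 genes, single libraries left out turned 18 of 190 signs for diet by sex, 11 for sex on chow and 7 for sex on high fat, and the other settings 16 of 90, 12 of 100 and 8 of 100.

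Samples with the same number did not deviate together (9 of 27 correlations over 0.1, and 5 libraries correlated best with their own number). The replicate block called 0 of the 10 in females, 0 in males, 4 on average, with Bcat2 added, and 0 in the other comparisons, and 1, 0, 1 and, by sex on high fat, 4 of the 23.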
